A study of Homo sapiens with 6 samples.

Results

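The genes described here are 10 feedback and output genes of the MAPK pathway, DUSP4, DUSP6, SPRY2, SPRY4, SPRED1, ETV1, ETV4, ETV5, PHLDA1 and EGR1, followed through the open chromatin around them in A375 cells. A375 is an established human melanoma line that carries an activating mutation of BRAF. ATAC-seq, in which a transposase cuts DNA where chromatin is accessible, was done on 3 libraries of cells with an empty vector and 3 of cells overexpressing HMGB2 (HMGB2OE), a chromatin protein that bends DNA. Both were stable lines made by viral transduction, not stated to be single clones. The study's reporting statement calls the 3 libraries of a condition technical replicates, so every p-value below measures the spread between libraries and not between experiments. A peak, a window of 502 bp, was given to a member when its centre lay in the gene's body in GENCODE release 44, or when it lay outside every protein-coding gene and the member's start was the nearest start of a protein-coding gene. This gave 423 of the 152800 peaks in the table, and all 423 passed the filter on low counts. Of these, 57 lay inside the genes, with 41 in introns, 7 in untranslated regions, 7 in coding exons and 2 in exons of non-coding transcripts, and 366 were intergenic. SPRY4 had 92 peaks, SPRY2 86, DUSP4 64, PHLDA1 48, DUSP6 34, EGR1 28, ETV1 27, SPRED1 22, ETV4 13 and ETV5 9.

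The MAPK pathway passes growth signals from receptors through RAS, RAF and MEK to the kinase ERK, and mutant BRAF keeps it active in many melanomas. ERK induces its own inhibitors: DUSP6 and DUSP4 are phosphatases that remove the activating phosphates from MAP kinases, and SPRY2, SPRY4 and SPRED1 block signalling near RAS and RAF. ETV1, ETV4 and ETV5, the PEA3 group of ETS transcription factors, EGR1, an immediate early zinc finger factor, and PHLDA1, a protein with a pleckstrin homology-like domain, are outputs whose transcripts are widely read as a measure of pathway activity. Several of these genes are repressed by Capicua (CIC), a factor that ERK signalling removes from DNA.

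The sequences that the observations below turn on come in a pair of sets. The first is the central 300 bases, hg38 plus strand, of the 4 peaks that rose in HMGB2OE cells. Capitals mark words searched on both strands: TGAGTCA or TGACTCA for AP-1, GGAATG for TEAD factors and TGAATGAA or TGAATGGA for CIC, where the reverse complement appears if the word reads on the other strand.
SPRY2, 95.8 kb upstream, chr13:80436780-80437079: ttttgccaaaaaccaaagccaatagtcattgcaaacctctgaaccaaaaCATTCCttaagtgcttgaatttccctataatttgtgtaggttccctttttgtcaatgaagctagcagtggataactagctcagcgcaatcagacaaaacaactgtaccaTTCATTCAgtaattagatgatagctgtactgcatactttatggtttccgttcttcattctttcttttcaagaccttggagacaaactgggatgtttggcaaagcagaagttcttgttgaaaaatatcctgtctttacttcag
SPRY2, 170 kb downstream, chr13:80171189-80171488: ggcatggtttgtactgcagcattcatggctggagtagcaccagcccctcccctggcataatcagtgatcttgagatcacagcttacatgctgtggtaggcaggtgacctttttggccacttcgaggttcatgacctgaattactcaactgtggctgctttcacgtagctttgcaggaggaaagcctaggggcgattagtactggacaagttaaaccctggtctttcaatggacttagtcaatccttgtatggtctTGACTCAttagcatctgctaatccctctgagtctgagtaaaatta
PHLDA1, 20.8 kb downstream, chr12:76010783-76011082: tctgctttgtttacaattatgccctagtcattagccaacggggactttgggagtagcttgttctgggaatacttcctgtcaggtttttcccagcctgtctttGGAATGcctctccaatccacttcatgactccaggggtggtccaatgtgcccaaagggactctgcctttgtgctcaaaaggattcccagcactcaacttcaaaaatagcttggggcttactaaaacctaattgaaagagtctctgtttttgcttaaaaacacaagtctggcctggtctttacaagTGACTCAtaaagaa
PHLDA1, 247 kb downstream, chr12:75784645-75784944: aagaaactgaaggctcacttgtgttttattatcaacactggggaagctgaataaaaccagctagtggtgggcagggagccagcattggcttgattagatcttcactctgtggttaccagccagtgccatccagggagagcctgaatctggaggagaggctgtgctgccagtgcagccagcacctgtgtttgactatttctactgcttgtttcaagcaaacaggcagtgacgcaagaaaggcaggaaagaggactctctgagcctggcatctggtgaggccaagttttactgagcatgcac
The second set is 30 bases around the CIC word of the peaks at transcript starts, shown because the share of promoter peaks with this word differed most between these genes and all genes, each on the strand that reads it.
DUSP6, chr12:89352293-89352322, plus strand: ttcctccccagTGAATGAAatccaattaat
SPRY4, chr5:142325284-142325313, plus strand: tttttttttaaTGAATGGAgggcggcggcg
ETV1, chr7:13991532-13991561, minus strand: ccggaattttgTGAATGGAgacgaaaggtg
ETV4, chr17:43546433-43546462, plus strand: attgacttttgTGAATGGAaccccagggct
ETV5, chr3:186109394-186109423, minus strand: cgcgttttttaTGAATGAAaaacgtcctta
In the genes printed the word lay between 98 and 319 bases from the nearest start of a transcript of its gene, downstream in DUSP6 and upstream in the others. The start-site peak of DUSP4, which is not printed, held the word at 2 places, 201 and 371 bases upstream.

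The libraries held from 26910189 to 45645294 counts in peaks, and normalized counts were scaled to the mean effective library size. As a check on the labels, the called peaks of HMGB2 were listed, which leaves out any that were not called. This pair, centred 2243 and 1502 bp downstream of the gene start, rose by 1.16 ± 0.27 and 1.67 ± 0.249 on the log2 scale (± standard error, adjusted p = 0.00822 and 0.000113). Reads from an introduced copy and from the gene itself cannot be told apart there. Of 8 markers of the melanocyte lineage, MITF, S100B and SOX10 had a peak within 1 kb of the gene start, with mean normalized counts of 1290, 866 and 96.9, and the pigment genes PMEL, MLANA, TYR, DCT and TYRP1 had none. Of 4 leukocyte markers none had such a peak, while KRT5 (63.9) and TP63 (115) of 4 keratinocyte, LUM (77.4) of 4 fibroblast and KDR (247) of 4 endothelial markers had one, those of TP63 and KDR above that of SOX10. A higher count can come from more cells with an open site or from a more open site in each cell, and these cannot be told apart.

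Few peaks around the 10 genes were called as changed in HMGB2OE cells, and a peak that was not called was not thereby shown to be unchanged. Of 423 peaks, 5 were called, with an adjusted p under 0.05 and a change of 1.5-fold or more, which is 1.18%, beside 3.31% of all 150117 tested peaks. Of these, 4 were higher in HMGB2OE (0.946%, beside 1.87%) and 1 was lower (0.236%, beside 1.44%). The higher ones belonged to SPRY2 and PHLDA1, 2 each, and the lower one to DUSP4. The remaining 7 genes had no called peak. With a LOESS trend over mean count removed the calls were 4 higher and 5 lower, and with offsets for GC content 6 higher and 3 lower.

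**Figure D1:**
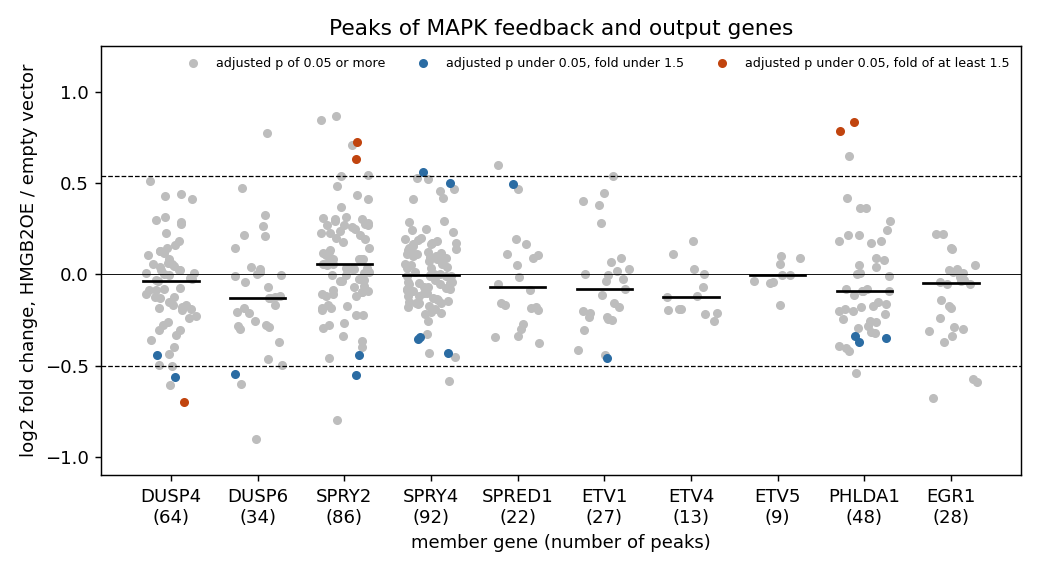
Log2 fold change (HMGB2OE over empty vector, vertical axis) of each of the 423 peaks, by gene, with the number of peaks in brackets. Black bars are gene medians, dashed lines the 5th and 95th percentiles of all tested peaks (-0.5 and 0.54), and colours mark adjusted p and fold; the 5 called peaks lie in DUSP4, SPRY2 and PHLDA1.

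Without the fold limit, 7 peaks (1.65%, beside 3.44% of all tested peaks) were higher and 13 (3.07%, beside 3.03%) were lower. Over all tested peaks 6.47% passed in either direction. These values are by edgeR. By DESeq2, the study's own test, 13 member peaks passed, 5 higher and 8 lower, and its share over all tested peaks is not given here. The 20 member peaks that passed by edgeR were all intergenic, and in 19 of them the normalized counts of the groups did not overlap. Such peaks were selected for a difference between the groups, so the lack of overlap, here and for single peaks below, adds no support. Its share over all passing peaks was not computed. They belonged to 7 genes, and ETV4, ETV5 and EGR1 had none by edgeR or by DESeq2. At an unadjusted p under 0.05 there were 79 of the 423 peaks, 29 higher and 50 lower, beside 20.9% of all tested peaks, with 10.2% lower. ETV4 had 2 of them and EGR1 4, all lower, and ETV5 0. Of the 20 peaks, 16 no longer passed when at least 1 library was left out. The number that no longer passed was 15 without empty vector replicate 2 and 12 without HMGB2OE replicate 1, and between 6 and 10 without each other library. The 4 peaks that kept an adjusted p under 0.05 in each of these fits were the 4 called higher.

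The median log2 fold change over the 423 peaks was -0.03, and over all tested peaks it was -0.00491. It differed with position. The 57 peaks inside the genes had a median of -0.092, with 39 below 0 (68.4%), beside -0.007 and 51.1% over all 77080 tested peaks inside protein-coding genes. These sets were not matched for kind of peak. Their median normalized counts were 150 and 115 and their median GC content 49.4% and 46.6%. Peaks within 3 kb of a start had a median of -0.06 over all genes. None of the 57 passed the adjusted p by edgeR or DESeq2, beside 6.1% of all peaks inside genes by edgeR. At an unadjusted p under 0.05 there were 2 higher and 6 lower, 8 of 57, beside 20.5% of all peaks inside genes, with 9.95% lower. The 366 intergenic peaks had a median of -0.011, beside -0.003. The median inside the genes stayed below 0 under each of the 5 other scalings, between -0.13 with GC offsets and -0.0669 with the median of the surrounding region removed, while that of all peaks inside genes was between -0.00767 and 0.0141. The number of the 57 below 0 depended on the scaling, from 34 with library sizes only to 44 with GC offsets. Over all 77080 peaks inside genes it was 36764 and 39514 in these settings.

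Of the 27 peaks within 3 kb of a member's start, 21 were below 0 (77.8%) with a median of -0.108. Over all 20891 such peaks of protein-coding genes, 64.7% were below 0 and the median was -0.06. None of the 27 was called by edgeR or DESeq2, beside 1.01% of all such peaks, and 1 passed without the fold limit by each tool (3.7%, beside 3.02% by edgeR). At an unadjusted p under 0.05 there were 5 of 27, all of them lower, beside 16.4% of all such peaks, with 11.7% lower. The median stayed below 0 under the 5 other scalings, between -0.104 and -0.063. The number of the 27 below 0 was from 19 with library sizes only to 24 with GC offsets. Over all 20891 such peaks it was 12600 and 13161 in these settings.

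The peak with the highest count within 3 kb of each start was taken as the start-site peak of the gene. The 10 peaks share 1 width, and their centres lay between 0.025 and 2.94 kb from the start. EGR1 stood highest, at 3287 ± 305 normalized counts (SD, n = 3) in empty vector libraries, above every library of the next gene. ETV5 (2303 ± 168), DUSP6 (2166 ± 178), PHLDA1 (2023 ± 119), SPRY2 (1873 ± 195) and ETV1 (1825 ± 104) followed, and each overlapped its neighbour in this order. SPRY4 (1617 ± 52.4), SPRED1 (874.2 ± 23.8), DUSP4 (753.1 ± 22.7) and ETV4 (316.7 ± 28.9) came after, each below every library of the gene before it. The order is one of counts and not of accessibility alone. It was not corrected for DNA copy number or for the base composition of the peaks, whose GC content lay between 50.0% and 73.3%. The ETV4 peak in this order is the one near its annotated start, which lies far upstream of the transcript start where its strongest peak was found.

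In HMGB2OE libraries 9 of the 10 start-site peaks had a lower mean and SPRY2 a higher one, and under the LOESS scaling 7 of 10 were below 0. None passed the adjusted p by edgeR, 2 had an unadjusted p under 0.05, both lower, and DESeq2 passed 1, that of ETV1. The libraries of the groups did not overlap in 3 of the 10 peaks, ETV1, SPRY4 and DUSP4, beside 23.5% of all tested peaks within 3 kb of a start.

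**Figure D2:**
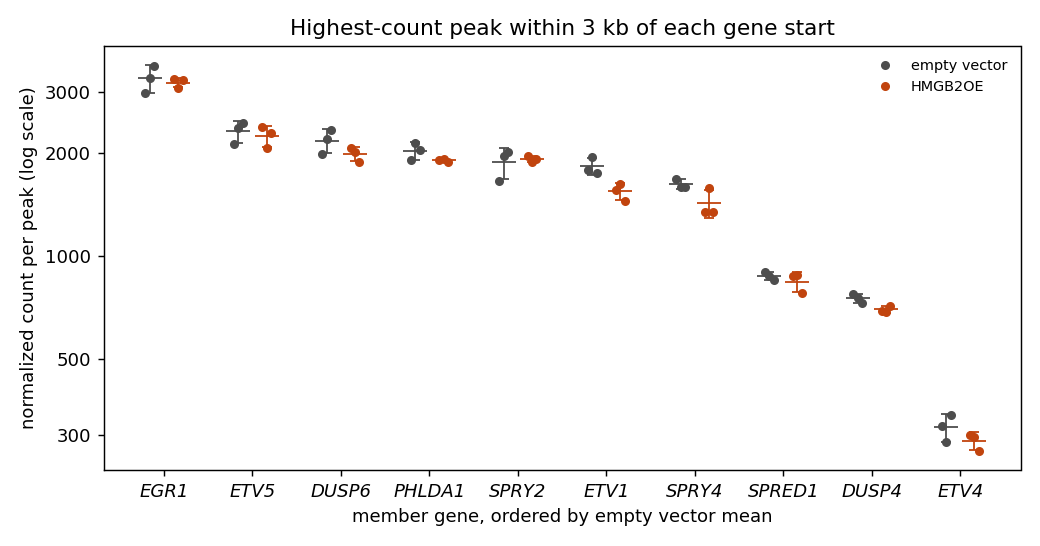
Normalized count (log axis) of the highest-count peak within 3 kb of each gene start, ordered by empty vector mean, with 3 empty vector libraries in grey and 3 HMGB2OE libraries in orange. Bars are mean and SD; the groups are apart in ETV1, SPRY4 and DUSP4 and overlap in the other 7.

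The phosphatase DUSP6, which acts on ERK in the cytoplasm, had its start-site peak on chromosome 12 from 89352276 to 89352777, centred 25 bp upstream of the start. Its normalized counts were 1975, 2193 and 2329 in empty vector and 2062, 2003 and 1880 in HMGB2OE libraries. The groups overlapped, and the change of -0.13 on the log2 scale (standard error 0.0758, 95% interval -0.28 to 0.03, adjusted p = 0.348) did not pass. Over its 34 peaks the median was -0.13 with 24 below 0, the lowest median among the 10 genes. The peak that passed lay 216 kb downstream, in the long non-coding gene LINC02458, on chromosome 12 from 89135828 to 89136329. Its counts were 151.5, 180.7 and 190.7 against 128.4, 97.59 and 136.2. Each HMGB2OE library was below each empty vector library, with a change of -0.54 on the log2 scale (standard error 0.152, adjusted p = 0.0271), under the fold limit. It did not pass by DESeq2, nor without each of 4 libraries, with adjusted p-values up to 0.166. LINC02458 held 21 of the 34 DUSP6 peaks, among them the lowest value of all 423, at 240 kb on chromosome 12 from 89112659 to 89113160. That peak had 45.86, 40.44 and 49.15 counts against 26.35, 19.18 and 27.02, without overlap. Its log2 fold change of -0.90 (95% interval -1.52 to -0.28, adjusted p = 0.0736) did not pass.

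DUSP4, the nuclear phosphatase of the pair, had its start-site peak on chromosome 8 from 29350690 to 29351191. The counts of 775.5, 753.7 and 730.2 against 692.8, 687.3 and 716.0 did not overlap, and the difference was small, -0.11 on the log2 scale (95% interval -0.28 to 0.06, adjusted p = 0.503). Its strongest peak lay 299 kb upstream with means of 1405 ± 161 and 1403 ± 66.8 (SD, n = 3 each), a log2 fold change of 0.00 (95% interval -0.17 to 0.17). The 3 DUSP4 peaks that passed, all of them lower, were among the 32 that lay more than 200 kb upstream. That limit was used for this gene alone and was not set in the plan, so it does not mark out a domain. The called one was centred 330 kb upstream in LINC00589, from 29680790 to 29681291, with 88.95, 88.62 and 80.74 counts in empty vector and 47.6, 63.39 and 47.28 in HMGB2OE libraries. The groups did not overlap, and the peak fell by 0.70 on the log2 scale (standard error 0.206, adjusted p = 0.037). It did not pass by DESeq2 (adjusted p = 0.0783) or without any 1 library other than HMGB2OE replicate 2 (adjusted p between 0.0552 and 0.149, log2 fold change between -0.744 and -0.623). The peak 347 kb upstream in the same non-coding gene had 176.5, 191.0 and 179.0 counts against 115.6, 125.9 and 130.6. Its groups lay apart, with a log2 fold change of -0.56 (adjusted p = 0.012) that did not pass without empty vector replicate 2 or HMGB2OE replicate 1 (up to 0.0736). The third, 242 kb upstream, had a log2 fold change of -0.44 (adjusted p = 0.0339, not passing by DESeq2 at 0.0679 or without each of 4 libraries, up to 0.184). The median of the 32 upstream peaks was -0.084 and that of all 64 DUSP4 peaks -0.036.

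SPRY2 was the one gene whose peaks were more often above 0: 34 of 86 were below, with a median of 0.06. Tested peaks within 5 Mb of its start-site peak had a median of 0.077, so the surrounding region stood at a similar level, and with that regional median removed the start-site peak went from 0.03 to -0.0462. The start-site peak, on chromosome 13 from 80341159 to 80341660, had 1650, 1959 and 2010 counts against 1959, 1873 and 1914, and the groups overlapped (95% interval -0.13 to 0.19, adjusted p = 0.87). The 86 peaks reached 1704 kb from the gene, in a region poor in protein-coding genes, and nearest start does not show which gene a distant peak serves.

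The peak 95.8 kb upstream of SPRY2, on chromosome 13 from 80436679 to 80437180, showed the clearest rise of the 423. It had 261.3, 346.7 and 376.8 counts in empty vector and 579.7, 542.2 and 515.6 in HMGB2OE libraries. Each HMGB2OE library was above each empty vector library, and the log2 fold change was 0.73 (standard error 0.113, adjusted p = 0.00018). It was between 0.60 and 0.83 when any 1 library was left out, with adjusted p-values up to 0.00417. Its sequence, printed above, held a CIC and a TEAD word and no AP-1 word. The peak 170 kb downstream, from 80171088 to 80171589, had 136.2, 125.6 and 128.7 counts against 191.3, 191.0 and 224.0. The groups were well apart, with a change of 0.63 on the log2 scale (standard error 0.136, adjusted p = 0.00429), and it held an AP-1 word. It fell short of the fold limit without HMGB2OE replicate 3 (0.56) and with the regional median removed (0.558).

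Other SPRY2 peaks passed in the opposite direction. At 133 kb upstream the log2 fold change was -0.55 (129.7 ± 24.9 against 88.62 ± 6.47 counts, SD, n = 3 each, adjusted p = 0.0458), and at 354 kb downstream it was -0.44 (777.1 ± 121 against 572.9 ± 70.0, adjusted p = 0.009). In both the groups did not overlap. The first no longer passed by DESeq2 (0.109), with library sizes only (0.0601), with GC offsets (0.0976, or 0.0807 with the replicate block as well) or without any 1 library other than empty vector replicate 3 (up to 0.26), and the second without empty vector replicate 2 or HMGB2OE replicate 3 (up to 0.117). The highest value among the 423 peaks was also near SPRY2, 1646263 bp upstream, at 0.87, with 25.02, 27.53 and 30.42 counts against 41.65, 48.38 and 63.04. At these low counts it did not pass (adjusted p = 0.0658), although the groups lay apart.

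SPRY4, a Sprouty paralogue, had 92 peaks with a median of -0.002 and 46 below 0. Its start-site peak, on chromosome 5 from 142324854 to 142325355, had 1677, 1587 and 1587 counts against 1346, 1581 and 1344. HMGB2OE replicate 2 was close to the empty vector libraries and the other two HMGB2OE libraries were lower, with a log2 fold change of -0.18 (95% interval -0.34 to -0.02, adjusted p = 0.179). The peak next to it, 1365 bp upstream from 142327570 to 142328071, was the one peak within 3 kb of a member's start that passed by edgeR. It had 479.5, 561.8 and 544.1 counts against 448.0, 442.1 and 359.1. The groups did not overlap, with a change of -0.34 on the log2 scale (standard error 0.105, adjusted p = 0.0443). It did not pass by DESeq2 or without any 1 library other than empty vector replicate 1 (up to 0.2). This peak and 27 others of SPRY4 lay in the antisense gene SPRY4-AS1, upstream of SPRY4, and ATAC-seq carries no strand that would assign it to either gene.

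Of the other SPRY4 peaks that passed, 3 lay in SPRY4-AS1. Those 60.0 and 159 kb upstream were higher in HMGB2OE, from 146.9 ± 11.6 to 207.3 ± 30.5 counts (log2 fold change 0.50, adjusted p = 0.026) and from 90.98 ± 10.4 to 135.5 ± 17.5 (0.56, adjusted p = 0.035). The peak 146 kb upstream was lower, with 985.4, 1306 and 1279 counts against 1036, 907.5 and 852.2, a log2 fold change of -0.35 (adjusted p = 0.0225). Here empty vector replicate 1 lay within the range of the HMGB2OE libraries, and it was the one passing peak in which the groups overlapped. The peak 74.9 kb downstream of the start, on the far side of the gene, was lower by -0.43 (adjusted p = 0.0235). None of the 4 passed in every fit that left out a library (adjusted p up to 0.19, 0.182, 0.141 and 0.106 in this order). By DESeq2 the peaks 60.0 and 159 kb upstream did not pass (0.0539 and 0.0753), nor did the latter with GC offsets (0.0559).

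SPRED1, which recruits neurofibromin to RAS, had 22 peaks with a median of -0.068. Its start-site peak, on chromosome 15 from 38251749 to 38252250, had 899.2, 871.6 and 851.9 counts against 871.3, 876.6 and 777.9, with overlap (log2 fold change -0.05, 95% interval -0.22 to 0.12). The strongest SPRED1 peak lay 123 kb upstream, at 1636 ± 26.3 against 1543 ± 45.6 counts, and did not pass (-0.08, adjusted p = 0.559). The 1 that passed was 65.0 kb upstream in the non-coding gene LINC02895, from 38187584 to 38188085, with 129.2, 135.9 and 134.6 counts against 198.1, 191.0 and 174.5. All HMGB2OE libraries were higher, by 0.50 on the log2 scale (standard error 0.135, adjusted p = 0.0232), under the fold limit. It did not pass without each of 4 libraries (up to 0.11).

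**Figure D3:**
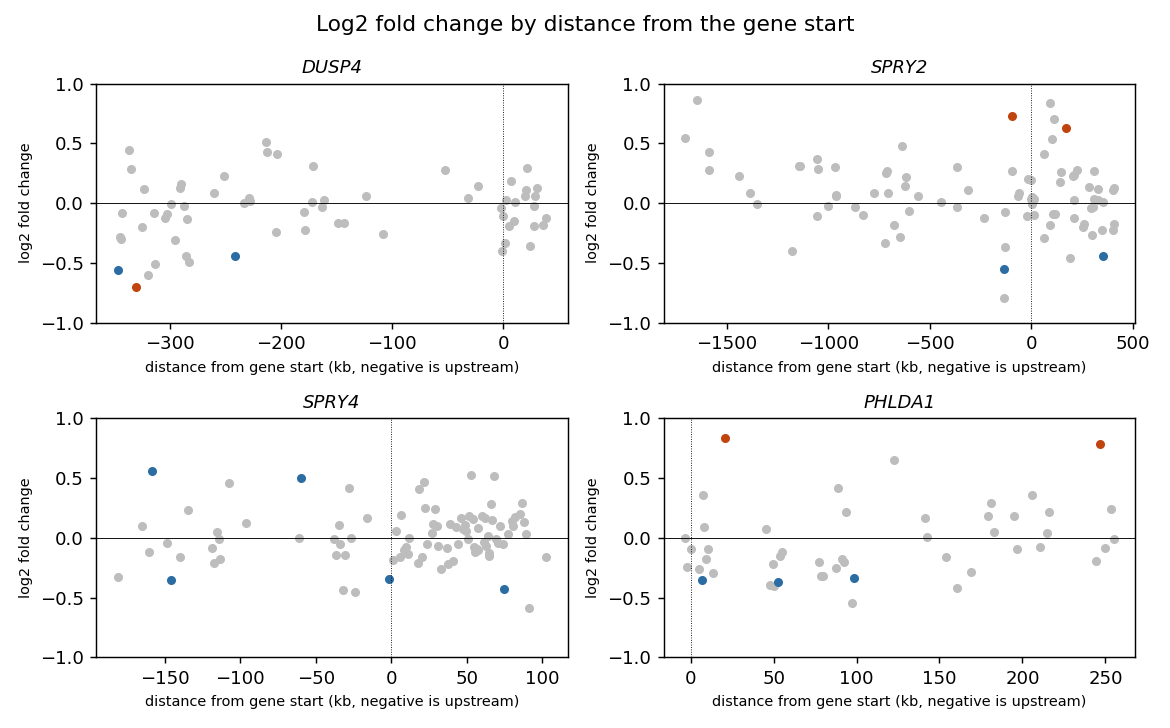
Log2 fold change (HMGB2OE over empty vector) against distance from the gene start in kb, negative upstream, for every peak of DUSP4, SPRY2, SPRY4 and PHLDA1. Grey points did not pass the adjusted p, blue points passed below 1.5-fold and orange points are called; in DUSP4 the 3 passing peaks lie beyond 200 kb upstream, and in SPRY2, SPRY4 and PHLDA1 passing peaks of both directions lie among neighbours that did not pass.

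In the PEA3 group, no peak of ETV1, ETV4 or ETV5 was called by edgeR or DESeq2 among 49, while 9 had an unadjusted p under 0.05, 7 of them lower, beside 20.9% of all tested peaks. The start-site peak of ETV1, on chromosome 7 from 13991261 to 13991762, was nearest to passing. It had 1784, 1944 and 1747 counts in empty vector and 1560, 1621 and 1444 in HMGB2OE libraries. Each HMGB2OE library was lower, with a change of -0.24 on the log2 scale (standard error 0.0764, 95% interval -0.40 to -0.09, adjusted p = 0.0513). The side of the threshold depended on the tool and scaling: DESeq2 gave an adjusted p of 0.0397, scaling by library size alone 0.0407 and GC offsets 0.0223, while without empty vector replicate 2 it was 0.25. The strongest ETV1 peak, in an intron 71 kb into the gene in its direction of transcription, had 2481 ± 70.4 against 2479 ± 166 counts (SD, n = 3 each). The 1 ETV1 peak that passed by edgeR lay 190 kb downstream of the start, beyond the gene's end, from 13800922 to 13801423. Its counts of 460.0, 605.7 and 480.9 against 398.7, 372.8 and 358.0 did not overlap (log2 fold change -0.46, standard error 0.108, adjusted p = 0.00895), and it did not pass without empty vector replicate 2 (0.119).

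All 13 ETV4 peaks lay in a stretch where the annotated bodies of ETV4 and DHX8 overlap, so their accessibility cannot be given to either gene alone. The peak within 3 kb of the annotated start had 319.6, 286.5 and 344.0 counts against 300.9, 296.9 and 270.2, with overlap. The strongest peak, chosen after its values were seen, covered an untranslated exon at another transcript start on chromosome 17 from 43546042 to 43546543. It had 1566, 1544 and 1612 counts against 1385, 1381 and 1312. Each HMGB2OE library was lower, with a change of -0.21 on the log2 scale (standard error 0.0746, 95% interval -0.36 to -0.06), and the adjusted p of 0.0874 did not pass. ETV5 had 9 peaks between -0.17 and 0.10. Its start-site peak, in an intron on chromosome 3 from 186109032 to 186109533 and also in the annotated body of DGKG, had 2112, 2363 and 2433 counts against 2366, 2058 and 2281, which overlapped (95% interval -0.20 to 0.11). The difference between ETV5 and the other members of the group was not tested.

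PHLDA1 had the most calls per peak of the 10 genes, 2 of 48 (4.17%, beside 3.31% of all tested peaks), and a median of -0.093 with 30 below 0. Its start-site peak, in the coding exon on chromosome 12 from 76031399 to 76031900, had 1898, 2135 and 2036 counts against 1905, 1911 and 1881, with overlap (log2 fold change -0.09, 95% interval -0.24 to 0.06). The peak 20.8 kb downstream of the start, past the end of the gene, from 76010682 to 76011183, had 90.34, 91.2 and 87.76 counts against 195.5, 155.1 and 127.2. Each HMGB2OE library was higher and these 3 spread widely, with a change of 0.83 on the log2 scale (standard error 0.165, adjusted p = 0.00213). It was between 0.66 and 0.97 when any 1 library was left out, with adjusted p up to 0.0408. The peak 247 kb downstream, from 75784544 to 75785045, had 109.8, 105.0 and 110.0 counts against 177.7, 173.5 and 210.5. The groups were far apart relative to their spread (log2 fold change 0.79, standard error 0.144, adjusted p = 0.001, and at most 0.00803 without any 1 library). The first held an AP-1 and a TEAD word and the second held none of the words searched.

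Another 3 PHLDA1 peaks passed and were lower, at 6.58, 52.4 and 98.5 kb downstream of the start. Their log2 fold changes were -0.35, -0.37 and -0.34 (adjusted p = 0.0424, 0.0124 and 0.0291). The mean counts went from 499.6 ± 63.0 to 392.8 ± 24.2, from 710.4 ± 33.5 to 550.2 ± 36.0 and from 620.3 ± 62.7 to 491.5 ± 8.72 (SD, n = 3 each). In each the groups did not overlap, and none passed in every fit that left out a library (up to 0.201, 0.0641 and 0.206). The peak at 6.58 kb also did not pass by DESeq2 (0.0597), with library sizes only (0.0513), with GC offsets (0.108, or 0.0922 with the replicate block as well) or with the regional median removed (0.0858), and with that median removed the peak at 98.5 kb did not pass either (0.0653). Of the 48 peaks, 36 lay in a long non-coding gene listed as ENSG00000258077, downstream of PHLDA1.

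EGR1, whose start-site peak had the highest count of the 423, had none that passed by edgeR or DESeq2 among 28 peaks, with 4 at an unadjusted p under 0.05. The start-site peak, 504 bp upstream on chromosome 5 from 138464725 to 138465226, had 2974, 3303 and 3583 counts against 3269, 3082 and 3244. The HMGB2OE libraries fell within the empty vector range, with a log2 fold change of -0.04 (95% interval -0.19 to 0.11, adjusted p = 0.808).

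**Figure D4:**
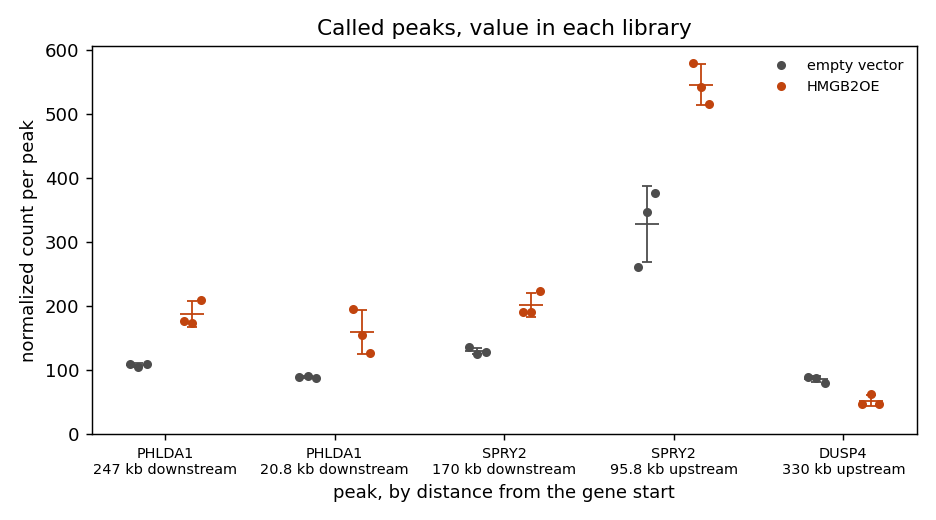
Normalized count in each library for the 5 called peaks, with empty vector in grey, HMGB2OE in orange, and mean and SD as bars. In every one the 3 libraries of a group lie apart from those of the other, with the highest level in the SPRY2 peak 95.8 kb upstream and the lowest in the DUSP4 peak. The peaks were selected by adjusted p and fold, so this separation adds no support.

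Summing counts over all peaks of a gene gives a single value for its neighbourhood. Peaks with high counts weigh most in it, and changes of single peaks in opposite directions can cancel. No total of the 10 passed an adjusted p of 0.05 by edgeR or by DESeq2, beside 9.23% of 18002 genes by edgeR. Of these 10 totals, 2 had an unadjusted p under 0.05. For DUSP6 the totals were 11233, 11887 and 11534 against 11087, 10765 and 10460. The HMGB2OE libraries were all lower (log2 fold change -0.10, 95% interval -0.18 to -0.02, adjusted p = 0.115). For ETV4 they were 6582.8, 6527.8 and 6512.9 against 6342.3, 6162.5 and 5908.3, again all lower (-0.09, 95% interval -0.17 to -0.01, adjusted p = 0.143). ETV1 (-0.07), PHLDA1 (-0.08), DUSP4 (-0.04), SPRED1 (-0.02) and EGR1 (0.00) were also below 0 in the fit, and SPRY2 (0.07), ETV5 (0.01) and SPRY4 (0.01) above. The median of all gene totals was -0.0024. For SPRY2 the totals were 18163, 19857 and 19531 against 20778, 20059 and 19538, which overlapped (95% interval -0.03 to 0.16). With the median of its region removed the SPRY2 total was -0.0691. Every interval of the 10 lay within -0.18 and 0.16 on the log2 scale.

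**Figure D5:**
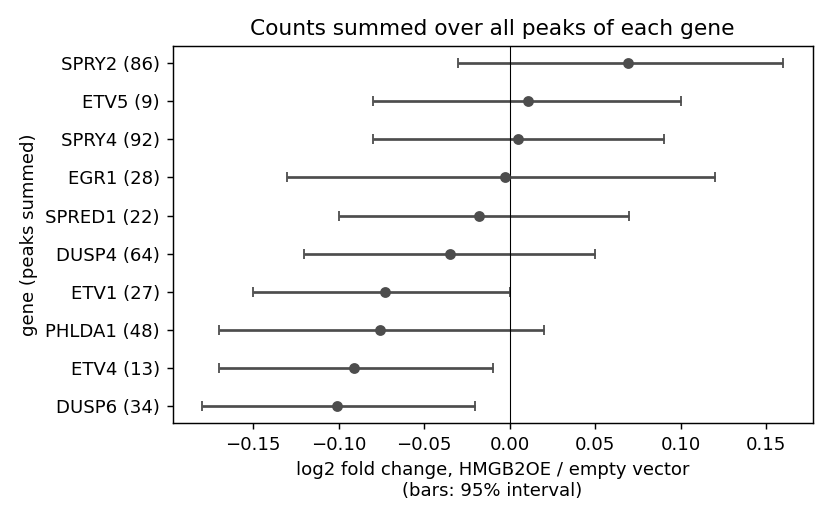
Log2 fold change (HMGB2OE over empty vector) of counts summed over all peaks of each gene, with the number of peaks in brackets and 95% intervals as bars. The intervals of DUSP6 and ETV4 end below 0 before adjustment, and the others include or touch 0.

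The CIC word was the most unequally placed of the motif words searched. It was present in 7 of the 27 peaks within 3 kb of a member's start (25.9%), beside 4.5% of the 20891 such peaks of all genes. Of the 10 start-site peaks it was in 5, those of DUSP4, DUSP6, SPRY4, ETV1 and ETV5, and in the peak at the other transcript start of ETV4. In the 396 distal peaks it was in 10.4%, beside 8.33%. The ETS word CCGGAA was in 29.6% of the member promoter peaks, beside 24.6%, and in 5 of the 10 start-site peaks. The AP-1 word was in 26.0% of the 423 peaks, beside 28.0%, in 2 of the 7 peaks that passed as higher (28.6%) and in 5 of the 13 that passed as lower (38.5%). TEAD words were in 4 of these 7 (57.1%, beside 29.0%) and in 3 of the 13 that passed as lower (23.1%). The EGR word GCGTGGGCG was in 0 of the 423, beside 0.369%, CRE (TGACGTCA) in 3, the E-box CACGTG in 19 and the CArG box of SRF in 15. These are counts of letters and were not tested, and several of these genes are known CIC targets, so the member list is not independent of that word.

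Other genes of the pathway had called peaks in both directions, in shares near the 3.31% of all tested peaks. In the core cascade, 22 genes from receptor adaptors to ERK, 4 of 211 peaks were called higher and 3 lower (3.32% in all, median -0.023). KSR2 and KSR1, scaffolds for RAF and MEK, had 2 and 1 peaks that rose, by 0.71 (adjusted p = 0.000243, 215 ± 15.7 to 353 ± 13.4 counts, SD, n = 3 each) and 0.84 (adjusted p = 0.000704, 127 ± 28.4 to 227 ± 22.6) at the one with the smallest adjusted p. A peak of RASA1, a RAS GTPase-activating protein, fell by 0.72 (adjusted p = 0.000494). Among 18 other feedback genes, 7 of 313 peaks were called higher and 4 lower (3.51%, median -0.012). DUSP10, a phosphatase of stress kinases, had 1 higher and 3 lower, the immediate early phosphatase DUSP1 3 higher, SPRED2 2 higher and DUSP5, which acts on nuclear ERK, 1 lower.

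Among 20 other output genes, 5 of 360 peaks were called higher and 9 lower (3.89%, median -0.052). MYC, whose peaks by nearest start reach far from the gene, had 6 of the 9 lower ones and 1 higher, and its peak 440 kb away fell from 181 ± 22.1 to 85.4 ± 7.5 counts (log2 fold change -1.07, adjusted p = 7.21e-05). ELK3, an ETS factor activated by ERK, had 2 lower, EPHA4 1 lower and ELK4 1 higher. Among the gene totals in these lists, these passed as lower and were named after their values were seen: RASA1 (-0.14, adjusted p = 0.0285), the early growth response gene EGR3 (-0.18, adjusted p = 0.0216) and the immediate early gene IER2 (-0.14, adjusted p = 0.0357). None of the 18 other feedback genes had a total that passed.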

How the data were processed

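ATAC-seq was done on 6 A375 libraries, 3 empty vector and 3 HMGB2OE, grouped by their titles. The authors trimmed reads with Trim Galore 0.6.7 and cutadapt 4.0, checked them with FastQC 0.12.1, used Bowtie 2 to align them to hg38 and Picard to discard duplicates. MACS2 peaks were called with a public set of melanocyte reads as the control, filtered for blacklisted regions and merged into an atlas of 152800. The deposited values are raw counts per peak and library from featureCounts, with no normalization. Shifting for the transposase and the handling of multiply aligned reads are not given in the sources used here. A peak caller run against another sample can change which weak peaks exist.

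Counts were analysed in R 4.3.3 with edgeR 4.0.16 (filterByExpr, TMM, quasi-likelihood F test, no covariate) over 150117 peaks, with Benjamini-Hochberg adjustment over all of them. The study's own test, the DESeq2 Wald test, was run as an alternative with DESeq2 1.42.0. Standard errors were taken as the absolute log2 fold change over the root of the F statistic. A normalized count is a count over effective library size, times the mean size. Gene totals were summed counts over peaks assigned to each of 18002 protein-coding genes, scaled by TMM on the totals. TMM factors of peaks lay between 0.975 and 1.02, and replicate pairs differed by 2.49 to 4.65 times the counting variance, so none was counted as a duplicate. The procedure was tested on simulated data.

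The members and lists were chosen with earlier results of these data known. Named were all 10 members, the highest-count peak within 3 kb of each start, each called peak, the highest and lowest log2 fold change, and up to 4 genes per wider list with the most called peaks. The strongest peak of a gene and peaks past the adjusted p but under the fold limit were chosen after their values were seen. Alternatives were other scalings, DESeq2, other filters, a replicate block, GC offsets, removal of the median within 5 Mb, other fold limits and gene assignments, and leaving out each library. Some single genes of the wider lists are not reported here.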

Additional observations from a re-analysis of the deposited data

How the results depend on the processing

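The median log2 fold change of the 423 peaks, -0.0268, kept its sign under each alternative. Its size was near the SD between libraries of the median log2 level over these peaks, 0.0232. With library sizes only it was -0.00634, beside 0.0163 for all tested peaks. It was -0.0924 with gene bodies only, where 0 peaks were called in either direction. The number of peaks called higher was 4; it was 7 with the replicate block and GC offsets together, 7 with the lower fold limit or none, 3 with regional medians removed, and between 4 and 7 when 1 library was left out (7 without empty vector replicate 1). The number called lower was 1, in DUSP4; it was 5 with the LOESS trend removed, 3 with GC offsets, 0 with DESeq2, 2 with at least 10 counts in every library, 4 with the block and GC offsets, 3 with regional medians removed, 13 with the lower fold limit or none, and between 0 and 2 with 1 library left out (0 without empty vector replicate 2, 2 without empty vector replicate 3 or HMGB2OE replicate 3). The cause was not tested. Deviations from the group mean had correlations of -0.0886, 0.185 and 0.125 between libraries of the same number. Libraries of different numbers were not compared in this way, so these values cannot settle whether the numbers are pairs. The main fit did not read them as pairs, and the replicate block gave 5 higher, 1 lower and a median of -0.0273.

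Signs turned only for values that did not pass. The start-site peak of EGR1 was 0.0273 with the LOESS trend removed and 0.00242 with the block and GC offsets, that of ETV5 0.0189 with the LOESS trend, and that of SPRY2 -0.0462 with the regional median removed. The SPRY4 total was -0.00472 with library sizes only, -0.00871 with LOESS, -0.000134 with GC offsets, -1.51e-05 with the block and GC offsets and -0.0976 over gene bodies. The ETV5 total was -0.000609 with LOESS and -0.0106 with the regional median removed, the SPRY2 total -0.0691 with that median removed, and the EGR1 total 0.00114 with the block and 0.046 over gene bodies. With 1 library left out, the start-site peaks ranged from -0.104 to 0.0239 for EGR1, -0.0999 to 0.0123 for ETV5, -0.0819 to 0.00127 for SPRED1 and -0.0491 to 0.0815 for SPRY2, and the totals from -0.00595 to 0.0188 for SPRY4, -0.0406 to 0.0134 for SPRED1, -0.0153 to 0.0416 for ETV5 and -0.0716 to 0.0856 for EGR1. Of all comparisons of a value with its alternatives, 594 kept direction and side, 78 lost the threshold and 10 gained it. The counts limit weak peaks: with libraries of 26910189 counts or more, members had mean counts from 21.0, and 12 of the 17 peaks that differed by at least 1.5-fold did not pass.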
